A study of Mus musculus with 7 samples.

Results

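The stretch of mouse chromosome 8 from 69000000 to 75999999 (mm9) was examined in the H3K9me3 peak lists of untreated and 4OHT-treated Setdb1 cKO iMEFs. Its members are all peaks of both lists that start between these borders, and they number 230 of the 23190 WT peaks and 124 of the 3775 KO peaks. The interval was selected on the measured values of the KO list, namely the number of KO peaks it carried, so its peak numbers are a description and carry no test.

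The series holds 7 chromatin immunoprecipitation sequencing (ChIP-seq) samples, of which 2 H3K9me3 libraries of iMEFs are used here. Setdb1 cKO iMEFs are immortalised mouse embryonic fibroblasts with a conditional allele of Setdb1, and the study's methods describe a line recloned from single cells. The labels do not say whether the sequenced cells were that clone. WT cells carried the same conditional allele and received no treatment. KO cells were exposed to 4-hydroxytamoxifen (4OHT), the drug that induces the deletion, during the first 4 days and were harvested on day 7. Both were precipitated with the antibody ab8898 from native chromatin digested with micrococcal nuclease. With 1 library per group there is no replicate spread, and no p-value is given anywhere.

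Trimethylation of lysine 9 of histone H3 (H3K9me3) marks silent chromatin. Setdb1 is a methyltransferase that sets this mark, above all on endogenous retroviruses, to which KRAB zinc-finger proteins and their cofactor Trim28 can bring it. For a retrovirus family it studied in MEFs, the paper concludes that these proteins are mostly not needed to maintain silencing. The Suv39h enzymes set the mark on pericentric satellite repeats. Exons of clustered zinc-finger genes are another known place of H3K9me3 in mammalian cells. Where DNA has been duplicated within a chromosome, short reads of the copies can be alike, and a read that fits several copies equally well has no unique place.

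A WT peak was called retained when a KO peak shared at least 1 bp with it and lost otherwise. In the interval, 29 of 230 WT peaks were retained, or 12.6% (Wilson 95% interval 8.92 to 17.5), where 2.42% of the whole WT list was retained. Of the KO peaks, 31 of 124 shared a base with a WT peak, or 25.0% (18.2 to 33.3), where 16.1% of the whole KO list did. Since the interval was chosen for its KO peaks, nothing is read from the distance to these background shares. All intervals cover counting error only. The deposited lists give no read totals. The paper gives a narrow approximate range of reads for the iMEF libraries, without a total for each. The number of reads left after duplicates were removed is unknown for either list.

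Most KO peaks lay in 3 short pockets almost free of coding genes. A pocket was defined as a chain of at least 10 KO peaks with no gap over 50 kb, a definition set after the positions had been seen. Pocket 1 spanned chr8:71932137-72054923 (123 kb) and held 51 KO and 56 WT peaks. Pocket 2 spanned chr8:73558184-73720615 (162 kb) and held 35 KO and 26 WT peaks. Pocket 3 spanned chr8:74296759-74378915 (82.2 kb) and held 16 KO and 11 WT peaks. In all, 102 of 124 KO peaks and 93 of 230 WT peaks lay in these 367 kb of the interval. Because the pockets are drawn around KO peaks, their KO number and its excess over WT follow from the definition. Outside the pockets lay 22 KO and 137 WT peaks.

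**Figure D1:**
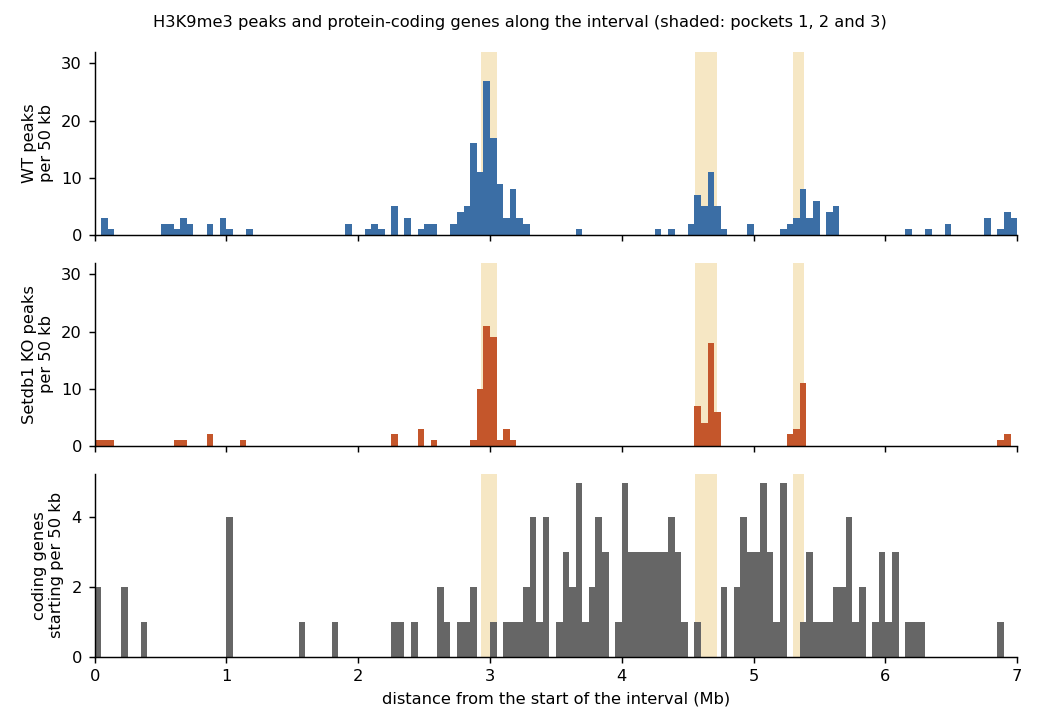
Peaks of the WT list (top), peaks of the Setdb1 KO list (middle) and starts of protein-coding genes (bottom) in 50 kb bins, against the distance from the start of the interval in Mb. The shaded stretches are pockets 1, 2 and 3, which hold 102 of the 124 KO peaks, while most genes start between and beside them.

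The sequences that recur between the pockets are shown first, since the finding rests on them. They are the highest-scoring KO peaks of each pocket among those of at most 300 bp, 2 from pocket 1 and 1 each from pockets 2 and 3, followed by the highest-scoring lost WT peak of the same size limit. Copies are printed in the direction of the peak, so that a copy marked minus is the reverse complement of the reference strand. Capitals mark bases that were substituted or inserted relative to the peak printed above them. All were read from the mm9 reference and not from the reads.

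The KO peak with the highest score of the interval lay in pocket 1. An exact copy of its 152 bp was found on the minus strand at chr8:19753168-19753319, in the window of the beta-defensin genes, and that copy overlapped a WT and a KO peak of its own. The copy in pocket 1, with 2 substitutions, and the copy in pocket 2 overlapped no peak of either list.
Peak, pocket 1, chr8:71952087-71952238, plus: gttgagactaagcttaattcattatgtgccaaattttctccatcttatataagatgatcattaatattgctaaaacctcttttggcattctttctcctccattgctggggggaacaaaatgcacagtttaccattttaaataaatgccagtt
Copy, pocket 1, chr8:72005452-72005603, plus: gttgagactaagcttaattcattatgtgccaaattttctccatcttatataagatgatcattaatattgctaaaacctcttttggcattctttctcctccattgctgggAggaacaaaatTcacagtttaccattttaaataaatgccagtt
Copy, pocket 2, chr8:73636914-73637069, minus: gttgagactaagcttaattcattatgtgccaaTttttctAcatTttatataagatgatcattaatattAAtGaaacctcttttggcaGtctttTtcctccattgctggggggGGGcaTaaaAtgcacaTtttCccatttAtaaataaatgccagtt

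The next KO peak of pocket 1 recurred in all 3 pockets and in the beta-defensin window. Its exact copy 53.1 kb away in pocket 1, at chr8:71997997-71998084, and its copy in the beta-defensin window each overlapped a WT and a KO peak. The copies in pockets 2 and 3, with 7 substitutions each, overlapped none.
Peak, pocket 1, chr8:71944917-71945004, plus: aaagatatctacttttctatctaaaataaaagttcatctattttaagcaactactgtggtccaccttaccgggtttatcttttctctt
Copy, beta-defensin window, chr8:19922416-19922503, plus: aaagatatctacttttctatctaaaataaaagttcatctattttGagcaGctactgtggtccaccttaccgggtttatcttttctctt
Copy, pocket 2, chr8:73649762-73649849, minus: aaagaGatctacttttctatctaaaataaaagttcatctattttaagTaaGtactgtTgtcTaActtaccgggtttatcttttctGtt
Copy, pocket 3, chr8:74349140-74349227, plus: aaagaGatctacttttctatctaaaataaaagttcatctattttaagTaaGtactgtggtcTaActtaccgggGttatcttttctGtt

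The top peaks of pockets 2 and 3 were KO-only, that is, no WT peak shared a base with them. Each has a copy in the other pocket. These copies lie side by side with the printed peaks, which they meet over 9 bp at the edge, and no other peak of either list overlapped them, so neither sequence was called in both pockets.
Peak, pocket 2, chr8:73720537-73720615, plus: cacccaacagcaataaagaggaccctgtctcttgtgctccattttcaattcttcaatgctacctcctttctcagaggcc
Copy, pocket 3, chr8:74322705-74322783, minus: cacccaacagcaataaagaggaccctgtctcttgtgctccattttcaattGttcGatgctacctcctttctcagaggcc
Peak, pocket 3, chr8:74322775-74322875, plus: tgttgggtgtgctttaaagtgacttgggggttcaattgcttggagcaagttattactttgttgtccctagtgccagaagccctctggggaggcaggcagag
Copy, pocket 2, chr8:73720445-73720545, minus: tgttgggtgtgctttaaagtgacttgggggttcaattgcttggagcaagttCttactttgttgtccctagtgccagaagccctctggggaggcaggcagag

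The highest-scoring lost WT peak lay 547 bp to the right of pocket 1. Its exact copy inside pocket 1, at chr8:71985873-71985971, overlapped a WT peak over 69 of its 99 bases and a KO peak over all 99. Peaks on exact copies were thus called lost at the former place and retained at the latter. The copy in the beta-defensin window, at 99.0% identity, overlapped a WT peak and no KO peak, and the copy in pocket 3 overlapped none. The copy in pocket 2 overlapped a WT peak only.
Peak, beside pocket 1, chr8:72055471-72055569, plus: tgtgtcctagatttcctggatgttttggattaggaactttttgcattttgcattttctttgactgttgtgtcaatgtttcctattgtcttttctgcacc
Copy, pocket 2, chr8:73710162-73710260, minus: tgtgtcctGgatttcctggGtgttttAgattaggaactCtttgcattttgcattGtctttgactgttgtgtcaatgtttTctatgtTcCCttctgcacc

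Such recurrence held for most members. For the counts, a copy was a place where the whole peak sequence aligned at 90% identity or more. The copies in pocket 2 of the first and the last peak printed above, at 89.5% and 89.9%, are just under this limit. Of the 102 KO peaks in pockets, 94 had a copy elsewhere in the interval, or 92.2% (85.3 to 96.0), and for 81 of these the best copy lay in a pocket. For 83, or 81.4% (72.7 to 87.7), a copy lay in the 2 Mb beta-defensin window from 19000000 to 20999999. Of the 93 WT peaks in pockets, 90 had a copy in the interval and 81 in that window. Outside the pockets the shares were lower, with 64 of 137 WT peaks (46.7%, 38.6 to 55.0) and 9 of 22 KO peaks (40.9%, 23.3 to 61.3) having a copy in the interval. Apart from the beta-defensin window, such copies were not counted for peaks outside the interval. No share over all peaks therefore stands beside these, and how far they exceed it is unknown.

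Pocket 1 was the pocket most like the beta-defensin window, and pockets 2 and 3 were most like each other. Counted in bases, 67.3% of pocket 1 was covered by 31-mers (runs of 31 bases) that also occurred in the beta-defensin window, against 22.3% of pocket 2 and 18.9% of pocket 3. Of pocket 3, 56.6% recurred in pocket 2 and 18.6% in pocket 1. Of the 1361 kb without a KO peak between pockets 1 and 2, 0.247% recurred in the window and 0.180% in pocket 2. Only 31-mers with at most 10 occurrences on chromosome 8 were counted.

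**Figure D2:**
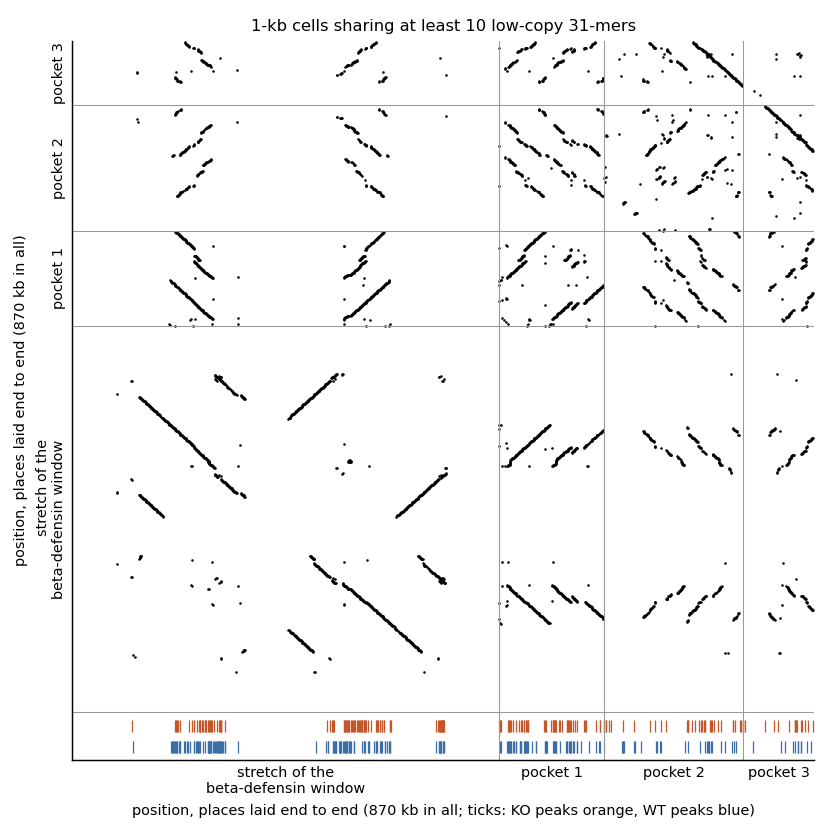
Each dot joins 2 cells of 1 kb that share at least 10 31-mers occurring no more than 10 times on chromosome 8. Both axes lay a 501 kb stretch of the beta-defensin window and pockets 1, 2 and 3 end to end. Ticks at the bottom mark KO (orange) and WT (blue) peaks. The diagonal runs off the main line show stretches of the window that recur in pocket 1, and a long run joins pockets 2 and 3.

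The beta-defensin window is the other place of chromosome 8 dense in KO peaks. It holds 12 Defb genes, which code for antimicrobial peptides of epithelia, among 18 coding genes, and it carried 126 WT and 102 KO peaks. Of all KO peaks outside the interval with at most 10 genome copies, 37 of 2974 had 31-mers that also lie in the interval, and all 37 were in this window. In the WT list 52 of 9999 such peaks did, of which 45 were in this window and 7 on other chromosomes. These counts hold for the median 31-mer of each peak. A single-copy peak outside the interval could not be counted on this measure, which holds for 2121 of the KO and 6508 of the WT peaks. Only the 853 KO and 3491 WT peaks with over 1 to 10 copies could be.

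The pockets shared their copy number with the beta-defensin window and with some other windows dense in KO peaks. They differed in it from the lists as a whole. For each 31-mer of a peak the places in the mm9 assembly that hold it were counted, and the median over the peak is its copy number. In the pockets, 70 of 102 KO peaks, or 68.6% (59.1 to 76.8), had over 1 to 10 copies, against 23.4% (22.0 to 24.8) of the 3651 KO peaks outside the interval. Single-copy KO peaks were 12.7% (7.60 to 20.6) in the pockets and 58.1% (56.5 to 59.7) outside the interval. The WT peaks of the pockets were alike, with 67.7% (57.7 to 76.4) at over 1 to 10 copies and 2.15% (0.592 to 7.51) at 1 copy. In the beta-defensin window 72.2% (63.8 to 79.3) of WT and 71.6% (62.2 to 79.4) of KO peaks had over 1 to 10 copies, and 3.97% and 8.82% were in single copy. Some other 1 Mb windows with at least 15 KO peaks were alike. Over 1 to 10 copies were found at 71 of 83 KO peaks in chr1:85000001-86000000 and 54 of 59 in chr5:15000001-16000000. Others were not, with 4 of 18 in chr10:78000001-79000000 and 0 of 16 in chr11:104000001-105000000. Over 1000 copies were rarer in the pockets, since 7.53% (3.69 to 14.7) of WT peaks in the pockets had over 1000 copies against 35.7% (35.0 to 36.3) outside the interval.

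**Figure D3:**
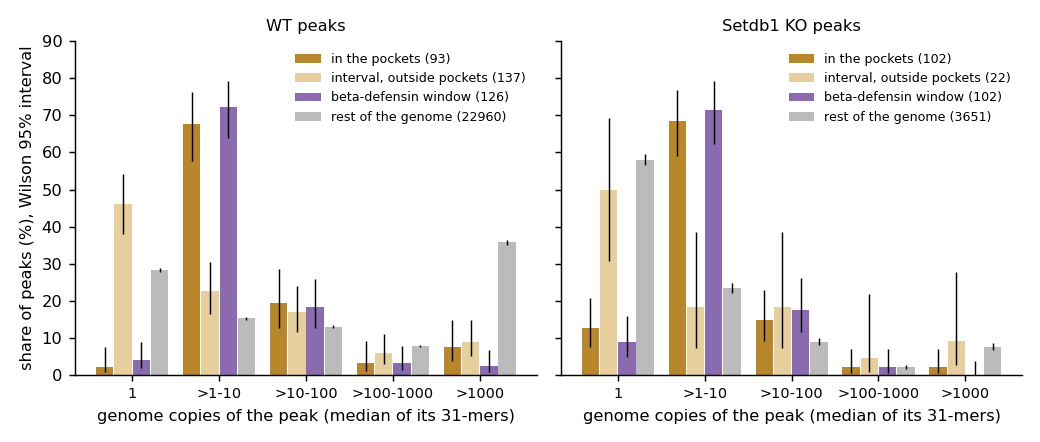
Share of WT (left) and KO (right) peaks in each class of genome copies, for the pockets, the rest of the interval, the beta-defensin window and all of the genome outside the interval, that window included, with Wilson 95% intervals and the number of peaks in brackets. The class of over 1 to 10 copies holds 67.7% of WT and 68.6% of KO peaks in the pockets, 72.2% and 71.6% in the beta-defensin window, and 15.2% and 23.4% outside the interval.

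The authors placed a read that fitted several sites at 1 of them drawn at random. Among copies that hold the same bases, the copy that carried the mark therefore cannot be told apart in these lists. Of the 24 single-copy KO peaks of the interval, 2 overlapped a WT peak. Outside the interval 182 of 2121 single-copy KO peaks did, a share near that of the interval.

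Base composition set the members apart less. The median GC content was 37.2% for KO and 37.3% for WT peaks of the interval, and 36.7% and 38.0% outside it. The median number of CpG sites per kb was 0 for KO peaks in and outside the interval, and 2.92 for WT peaks in and 5.05 outside it. By median, members in the pockets were taller peaks on a raised local background. The local background is the number of fragments the peak caller took as the level around a peak. Pileup is the number of fragments at the summit of a peak. The fold enrichment is (pileup + 1) over (local background + 1), and the score is −log10 of the q-value.

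KO peaks of the interval had a median pileup of 15 fragments (quartiles 12 and 20), against 10 outside it. Their median local background was 2.79, against 1.07 outside, and 1.07 was also the lowest value of the KO list. Their median fold was 4.28 against 4.84. WT peaks of the interval had a median pileup of 12 (quartiles 10 and 17) against 10, a median local background of 1.56 against 1.20 and a median fold of 4.53 against 4.63. By median, the members were therefore higher in pileup and not in fold. The median pileup was 17 in the pockets in both lists, and at interval peaks outside them 10 in WT and 9 in KO. A background over 3 was found at 53 of 124 KO peaks, or 42.7% (34.4 to 51.5), against 16.4% (15.3 to 17.7) outside the interval.

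The raised background was a feature of the pockets. The median local background of KO peaks was 2.86 in pocket 1, 2.79 in pocket 2 and 4.23 in pocket 3, and 1.07 at the 22 KO peaks outside pockets. That of WT peaks was 3.37, 2.31 and 4.92 in the pockets and 1.31 at the 137 WT peaks outside them. In the megabases on either side of the interval, from 68000001 to 69000000 and from 76000001 to 77000000, the KO median was 1.07. The beta-defensin window stood higher still, with a median of 7.98 in WT and 9.08 in KO. Among other 1 Mb windows with at least 15 KO peaks the KO median varied. It ranged from 1.07 at chr10:78000001-79000000 to 71.3 at chr9:3000001-4000000. The part of the raised background and of the copy number in the KO peak number was not tested.

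**Figure D4:**
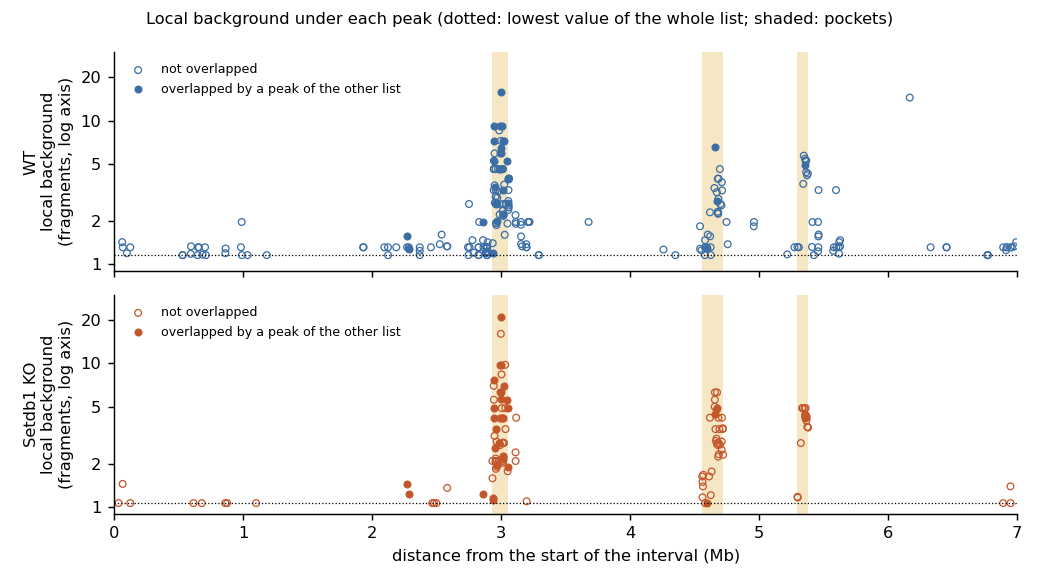
Local background in fragments (log axis) of each WT peak (top) and KO peak (bottom) against the distance from the start of the interval in Mb. Filled points share a base with a peak of the other list, and the dotted line is the lowest value of the whole list, 1.16 in WT and 1.07 in KO. Of the points above 3 fragments, 50 of 57 in WT and 52 of 53 in KO lie in the shaded pockets.

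Most retained WT peaks of the interval lay in pocket 1. In pocket 1, 22 of 56 WT peaks were retained, or 39.3% (27.6 to 52.4). In pocket 2, 3 of 26 were, or 11.5% (4.00 to 29.0), and in pocket 3, 1 of 11, or 9.09% (1.62 to 37.7). Outside the pockets 3 of 137 WT peaks were retained, or 2.19% (0.747 to 6.24). In the KO list, 24 of 51 peaks of pocket 1 were shared, or 47.1% (34.1 to 60.5), against 3 of 35 in pocket 2, or 8.57% (2.96 to 22.4). The WT intervals of the pockets overlap one another. The pockets are drawn around KO peaks, and peaks of 1 library are not replicates. Nothing is therefore read from the distance between these shares. A WT peak lay within 1 kb of 44 of the 51 KO peaks of pocket 1 and of 18 of the 35 of pocket 2.

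Retained WT peaks had a higher median pileup than lost ones. The 29 retained peaks had a median pileup of 21 fragments (10 to 45), a median local background of 4.60 and a median fold of 4.36. The 67 lost peaks inside the pockets had a median pileup of 17 (9 to 26) and a background of 2.90. The 134 lost peaks outside the pockets had a median pileup of 10 (9 to 36) and a background of 1.31. Of the 29 retained peaks, 22 lay in pocket 1. All WT peaks together had a median pileup of 19 in pocket 1, 13 in pocket 2 and 19 in pocket 3. Retained and lost peaks were not compared within pocket 1. The 93 KO-only peaks had a median pileup of 15 (9 to 39) at a background of 2.72, and 49 of them lay within 1 kb of a WT peak.

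The 29 WT and 31 KO peaks form 31 overlapping pairs, of which 28 lay in pockets and 24 in pocket 1. WT peaks of the pairs had a median pileup of 21 and KO peaks of 19, with the KO value lower in 21 pairs, equal in 2 and higher in 8. The median fold stood at 4.43 in WT against 4.04 in KO. The ratio of KO to WT fold ranged from 0.676 to 1.53 with a median of 0.954. The local background was lower in KO in 22 pairs and higher in 9, with a ratio of KO to WT from 0.455 to 1.78. Places called in 1 list alone do not enter these pairs. Because the depth of each library after removal of duplicates is unknown, pileups are compared here as deposited.

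**Figure D5:**
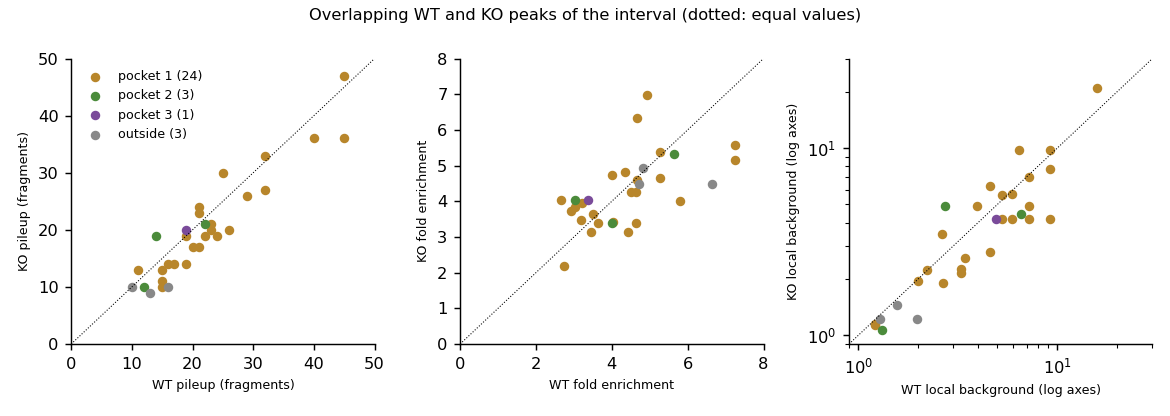
Pileup, fold enrichment and local background of the 31 overlapping pairs of peaks, WT on the horizontal and KO on the vertical axis, coloured by pocket with the number of pairs in brackets. Points fall on both sides of the dotted line of equal values, 21 of 31 below it for pileup and 17 of 31 for fold.

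The 5 retained WT peaks with the highest scores all lay between genes in pocket 1. The peak at chr8:71945681-71945776 scored 12.1 at a pileup of 45 and a fold of 4.51, and the KO peak over it scored 9.31 at 36 and 4.26. Its 31-mers had a median of 19 genome copies. The peak at chr8:71944928-71945011, whose sequence is shown above, had a pileup of 32 in WT and 27 in KO at a fold of 5.27 and 5.39. At chr8:71994489-71994814, a place with 2068 copies, the pileup was 40 in WT and 36 in KO. The other two, at chr8:71997955-71998181 and chr8:71933050-71933719, had a WT pileup of 32 and 15. The latter had the highest fold of the retained peaks, 7.25 in WT, and the 2 KO peaks over it had 5.16 and 5.57.

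None of the 5 lost WT peaks with the highest scores lay in a pocket. The fifth was tied in score, pileup and fold with a peak between genes at chr8:71891193-71891728 and was taken for its position. Peak chr8:72055470-72055569, shown above, had a pileup of 26 and a fold of 7.18. Peak chr8:71888894-71889294 had the highest fold of the WT members, 8.33, at the lowest background of the list, 1.16, and lay 6.75 kb from Gm10033. Peak chr8:72060635-72060704 had a pileup of 27 and a fold of 5.66. The peak at chr8:71895387-71897388 was 2001 bp wide with a pileup of 17, was in single copy, and covered an exon of Gm10033. The peak at chr8:71825699-71826108 covered an exon of D130040H23Rik with a pileup of 15 and a fold of 7.41.

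The 5 highest KO-only peaks lay between genes in pocket 1, except chr8:74364779-74365120 in pocket 3, which had a pileup of 25 and a fold of 4.89. The first, chr8:71942587-71942924, had a pileup of 34 and a fold of 4.38 at 3 genome copies. Next came chr8:72002462-72002560 with a pileup of 37, chr8:72032143-72032297 with 27 and chr8:72049988-72050068 with 17. The last of these had the highest fold of the KO-only members, 6.47.

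Genes were plentiful in the interval, and few of the KO peaks lay on them. By GENCODE M1, 148 protein-coding genes overlap it, or 21.3 per Mb against 8.75 per Mb in the genome, and their bodies cover 48.9% of its bases. In the pockets they cover 1.70%, and in the whole genome 38.9%. Of the KO peaks 3 of 124 touched a coding gene body, or 2.42% (0.826 to 6.87), against 25.1% (23.8 to 26.6) outside the interval. Of the WT peaks 31 of 230 did, or 13.5% (9.66 to 18.5), against 20.7% (20.2 to 21.2). On exons lay 13 of 230 WT peaks, or 5.65% (3.33 to 9.43), against 2.12% (1.94 to 2.31) outside the interval, and all 13 were outside the pockets. Exons cover 6.43% of the bases of the interval and 3.01% of the genome, so no excess of WT peaks on exons is read from this. No KO peak lay on an exon, and 0 of 124 allows a share of up to 2.42% by 3 counts of the total. The share outside the interval was 2.88% (2.38 to 3.47), which lies within the Wilson interval of 0 of 124. A lower share of KO peaks on exons was thus not detectable with 124 peaks. Outside the pockets 30 of 137 WT peaks touched a gene body, or 21.9% (15.8 to 29.5), which was near the 20.7% outside the interval. These peak shares stand on unlike shares of gene-body bases. The name of a gene-rich interval that keeps KO peaks thus fits the genes and the KO peaks separately, and they occupy different bases of it.

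A promoter was taken to reach from 2 kb before a transcript start to 0.5 kb past it. They cover 8.21% of the interval and 3.80% of the genome. A promoter was touched by 9 of 230 WT peaks, or 3.91% (2.07 to 7.27), and 1 of 124 KO peaks, or 0.806% (0.143 to 4.43). Outside the interval 2.43% (2.24 to 2.64) of WT and 4.55% (3.92 to 5.27) of KO peaks did, so the WT share was within counting error of the rest of the list. The KO peak was at the promoter of Tktl2, a transketolase-like gene, at chr8:69034228-69034292. It had a pileup of 9, the lowest value in the list, and a background of 1.07, and it was also the first KO peak inside the left border.

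Of the 148 genes, 16 had a WT peak in the body, 7 had one at a promoter and 3 had a KO peak in the body. The 3 genes with a KO peak were Slc18a1, Gm7697 and Gm5373, with 1 each, all in introns. In Slc18a1 (chr8:71561610-71613134, minus strand), the gene of a vesicular monoamine transporter, the KO peak had a pileup of 10 and shared no base with the 2 WT peaks of the gene. In Gm7697 (chr8:72042628-72046639, minus strand), the coding gene inside pocket 1, the KO peak at chr8:72044980-72045085 had a pileup of 23 and the WT peak under it 21. In Gm5373, at the right end of pocket 3, the KO peak at chr8:74378689-74378915 had a pileup of 16. The KO peak had a median of 8 genome copies in Slc18a1, 4 in Gm7697 and 2 in Gm5373. Only a read that fits several copies equally well has no unique place.

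The 5 genes with the most WT peaks and no KO peak were Csgalnact1, Large, Zfp617, D130040H23Rik and Gm20422. Csgalnact1 (chr8:70880680-71259045, minus strand), an enzyme of chondroitin sulfate synthesis, had 6 WT peaks with pileups of 9 to 12, all in introns. Large (chr8:75338498-75877439, minus strand), a glycosyltransferase that acts on alpha-dystroglycan, had 5 in introns with pileups of 9 to 11. Zfp617 had 4 WT peaks on exons with pileups of 9 to 13, D130040H23Rik had 4, of which 3 on exons, with pileups of 9 to 15, and Gm20422 had 2. All of these peaks were lost.

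Of the 10 numbered Zfp genes of the interval, 4 had WT peaks in the body, 8 peaks in all, and 0 had a KO peak. The broadest of all members was at Zfp930 (chr8:71750242-71752879, plus strand), where a single-copy WT peak of 2870 bp at chr8:71750456-71753326 ran over promoter, exons and the end of the gene at a pileup of 16 and a fold of 4.68, on a background of 2.63. Zfp709 had 1 WT peak in the body with a pileup of 13 and another at its promoter with 10. Zfp866 had 2 with pileups of 9 and 10, which also lie in the overlapping gene Gm20422. The other 6, Zfp868, Zfp869, Zfp882, Zfp961, Zfp963 and Zfp964, had no peak of either list in the body or at the promoter. The KO peak nearest to a Zfp gene lay 9.19 kb from Zfp964.

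The other 4 genes that name the interval had no peak at all. At Lpl (chr8:71404390-71431347, plus strand), which codes for the lipase of triglyceride-rich lipoproteins, the nearest WT peak lay 24.6 kb and the nearest KO peak 34.6 kb away. At Jund (chr8:73221638-73224515, plus strand), a subunit of the transcription factor AP-1, these distances were 33.1 and 334 kb. At Gdf15 (chr8:73153292-73156355, minus strand), a secreted member of the TGF-beta superfamily, they were 101 and 402 kb. At Ifi30 (chr8:73286673-73291050, minus strand), a lysosomal thiol reductase induced by interferon, they were 28.5 and 267 kb.

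The functional lists had the same count. The 9 genes of transcription and chromatin (Jund, Klf2, Crtc1, Nr2f6, Sin3b, Med26, Ell, Gatad2a and Upf1), the 5 of immune and interferon response (Ifi30, Bst2, Jak3, Il12rb1 and Hsh2d), the 5 of lipid and vessel biology (Lpl, Tm6sf2, Slc27a1, Lpar2 and Plvap) and the 6 of secreted and matrix proteins (Gdf15, Gdf1, Comp, Ncan, Hapln4 and Insl3) had 0 WT and 0 KO peaks in the body or at a promoter. Hmox1 and Mcm5 lie outside the interval in this annotation. The gene Jak3, a kinase of cytokine receptors, and Comp, a cartilage matrix protein, are examples of the genes between the pockets.

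The 65 coding genes that start in the 1361 kb between chr8:72197487 and chr8:73558184 had no KO peak among them, and 11 WT peaks lay in that stretch. The longest stretch without a KO peak, 1512 kb from 74378915 to 75890461, had 29 genes and 25 WT peaks. In single megabases, the third of the interval held 82 WT and 38 KO peaks with 9 coding genes starting there. The fifth held 35 of each list and 43 coding genes. The second held 4 WT and 1 KO peaks and 7 genes.

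Peaks went on past both borders, with 18 WT and 5 KO peaks in the megabase to the left and 26 WT and 9 KO peaks in that to the right, against 9.0 WT and 1.43 KO peaks per Mb outside the interval. On the left the last KO peak outside, chr8:68884444-68884662, had a pileup of 10 and a background of 1.40, and the first inside had 9 and 1.07. On the right the last KO peak inside, chr8:75947992-75948074, and the first outside, chr8:76113846-76113910, both had a pileup of 9 and a fold of 4.84. In WT the last peak outside on the left had a pileup of 9 and the first inside 12, and on the right these were 10 inside and 9 outside. None of these 8 peaks shared a base with the other list.

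Among 2512 windows of 1 Mb that held any peak, 23 had at least 15 KO peaks, and 4 of these lay in the interval. The window of the beta-defensin genes ranked first with 90 KO and 116 WT peaks, and the third megabase of the interval held 38 and 82. The fifth megabase had 35 KO peaks for 35 WT peaks, of which 3 KO peaks were shared. Within 1 kb of a WT peak, however, lay 18 of these 35 KO peaks, which are those of pocket 2. Of the 35, 10 were in single copy and 19 had over 1 to 10 copies. The part of read placement in this overlap was not tested.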

How the data were processed

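Native chromatin was sequenced single-end, and the authors mapped the reads to mm9 with Bowtie2 2.2.3, placed a multi-hit read at 1 random site and removed duplicates with Picard. Peaks were called by the authors with MACS2 2.1.0.20140616, 1 list per library; the caller's options and the use of the input are not given in the sources used here. The deposited lists give a pileup (coverage signal at the summit, in fragments), a fold enrichment (ratio to the local background) and −log10 p and q-values. These score each peak within its library and compare no groups.

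Computed here were the local background, (pileup + 1) / fold − 1, overlaps of at least 1 bp (checked with bedtools 2.31.1 and on planted overlaps), Wilson 95% intervals with SciPy 1.17.1, copies of each 31-mer in mm9 (peaks under 61 bp widened; tested on simulated sequence), and full-length alignments on chromosome 8 with edlib 1.3.9.post1. Genes are from GENCODE M1 on NCBIM37, which is mm9. The deposited starts were read as counting from 0, which is not stated, so peak starts carry an uncertainty of 1 bp; sequences are given with 1-based coordinates. A 50 kb unsequenced gap of the interval was left out of its length. The members, gene lists and pockets were chosen with earlier results of these data known. The genes named are the 5 that name the interval, those with a KO peak at a promoter, up to 10 with the most KO peaks and 5 with the most WT and 0 KO peaks in the body, the functional lists, and genes at the 5 highest-scoring peaks of each class. One member of the functional lists is not reported here. The other 5 samples were not used here. Alternatives were higher score or pileup limits, merged peaks, moved borders, other overlap rules and a longer promoter.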

Additional observations from a re-analysis of the deposited data

How the results depend on the processing

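Of 41 alternative values, 22 stayed within 1.5 times (numbers) or within the counting interval of the value reported (shares and density), and 19 moved. The KO density of the interval was 12.5 times that of the rest of the genome, a value above 1 by the choice of the interval, which no alternative can support. It was 19.4 with scores at or above the WT median, 37.5 with pileups of at least 15, 9.55 with peaks within 1 kb merged and 15.9 with the interval narrowed by 1 Mb at each end. Chosen after seeing the data, single-copy peaks alone gave 4.15 and peaks at the background floor 2.76. The WT number of 230 fell to 143 by score, 78 by pileup and 142 by merging, and the KO number of 124 to 76 by score and 69 by pileup, since these rules leave fewer peaks. Retention of WT peaks was 24.4% with pileups of at least 15, 37.8% when a KO peak within 1 kb counted, and 3.08% (2 of 65) for single-copy peaks. The shared share of KO peaks was 64.5% within 1 kb and 8.33% (2 of 24) for single-copy peaks. Outside the interval 167 of 6508 single-copy WT peaks were retained and 182 of 2121 single-copy KO peaks were shared. With a promoter reaching 5 kb upstream 9.13% of WT peaks touched one. With the pileup or the score limit 0 KO peaks touched one, which allows up to 4.35% of 69 and 3.95% of 76. What lies behind these changes, other than fewer peaks or wider features, was not tested. Chaining KO peaks at up to 20 or 100 kb put 100 peaks in 4 and 107 peaks in 3 pockets. No paired analysis was possible because only 1 library stood for WT and 1 for KO, and no library could be left out for the same reason. The depth of each library after removal of duplicates is unknown, which limits every comparison of peak numbers between the lists.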
